A study of Mus musculus with 9 samples.

Results

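The loci of 10 genes of epithelial identity were examined in ATAC-seq peak lists of sorted cells from mouse embryos. The genes were Epcam, Cdh1, Krt8, Krt18, Esrp1, Grhl2, Grhl3, Trp63, Ovol1 and Cldn6, which are 10 of the 22350 protein-coding genes of the mm9 annotation. They were chosen by name as genes of epithelia, with earlier results of these data known. A peak was assigned to a gene when its midpoint lay in the gene or less than 50 kb from it, and windows of neighbouring genes could share peaks. Because the sorted cells are labelled pharyngeal mesoderm, the question asked of these loci was whether chromatin that is typical of endoderm or ectoderm was open in them, and in which of the groups.

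The data are 9 peak lists, 3 from each of 3 groups of Swiss Webster embryos at E9.5. Mesp1-Cre Ctrl embryos were Mesp1Cre;Rosa26-GFPflox/+, Tbx1-Cre Ctrl embryos were Tbx1Cre;Rosa26-GFPflox/+, and Tbx1-Cre cKO embryos, in which Tbx1 was conditionally knocked out, were Tbx1Cre/flox;Rosa26-GFPflox/+. In every group Cre switched on GFP permanently in the cells that had expressed the driver gene and in their descendants, and each library was made from GFP-positive, DAPI-negative cells pooled from several embryos. Mesp1 is transcribed in early mesoderm. Tbx1 is transcribed in mesoderm, endoderm and ectoderm of the pharyngeal apparatus, the embryonic arches that give rise to much of the face, neck and outflow tract, so that Tbx1-Cre also labels epithelial cells. The Tbx1-Cre allele carries Cre in the Tbx1 gene and inactivates that copy. Tbx1-Cre Ctrl cells therefore had 1 working copy of Tbx1, Tbx1-Cre cKO cells lost that copy too once Cre had recombined the floxed allele, and nothing in the genotype of the Mesp1-Cre Ctrl embryos altered Tbx1. The tissue label also differed: it was pharyngeal apparatus and heart for Mesp1-Cre Ctrl, with the back added for both Tbx1-Cre groups, while the methods of the study describe a dissection that left the heart out. Cre driver, Tbx1 dosage and tissue cannot be told apart between Mesp1-Cre Ctrl and the Tbx1-Cre groups.

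Epithelial cells form sheets that are held together by adherens and tight junctions and are braced by keratin filaments. Cdh1 (E-cadherin) and Epcam are adhesion proteins of the epithelial cell surface, Cldn6 is a claudin of the tight junction, and Krt8 and Krt18 pair to form the filaments of simple epithelia. Esrp1 directs epithelial splicing. Grhl2, Grhl3, Trp63 (p63) and Ovol1 are transcription factors that set up or maintain epithelial programmes, with Grhl2 known as an activator of Cdh1 and of claudin genes and p63 as the leading factor of surface ectoderm and stratified epithelium. In mesenchyme the same genes are usually silent, and Snail and Zeb factors can repress several of them through the E2-box, CAGGTG.

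The lists differed in length, which bears on every count below. They held 25485 to 42650 peaks in Mesp1-Cre Ctrl, 43298 to 49490 in Tbx1-Cre Ctrl and 19772 to 29251 in Tbx1-Cre cKO, and every Tbx1-Cre Ctrl list was longer than every other list. Read numbers were not used here, so depth is unknown. A peak that is missing from a list can reflect fewer cells with open chromatin, less open chromatin per cell or fewer reads, which cannot be told apart in bulk samples. Mesp1-Cre Ctrl replicate 1, with 42650 peaks, stood apart from replicates 2 and 3 with 25485 and 30535 peaks. Its number of peaks does not appear in the study's summary of samples, which gives those of replicates 2 and 3, and the results that rest on it are given with and without it. Nothing in the labels says whether the libraries of a group came from separate litters, so a p-value here measures the spread between these libraries only.

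In the windows of the 10 genes, 4 of 69 regions (5.80%, against 5.6% of the 73301 regions of the genome) were called in all Tbx1-Cre Ctrl and no Mesp1-Cre Ctrl libraries, a share near the background. They lay in an intron of Cdh1 (1 region), on either side of Grhl2 (2 regions) and in an intron of Trp63 (1 region), and all 4 were distal. Distal means that the midpoint was more than 1 kb from any annotated transcription start site (TSS). Regions were made by merging peaks of the 9 lists that overlapped by at least 1 bp. With equal numbers of the widest peaks, or with the widest 75% of each list, 0 regions showed the pattern. The central 200 bases of each of the 4 regions are shown in mm9 on the plus strand, so that the regions behind this count can be seen. Capitals mark the E2-box:
Cdh1 intron, chr8:109143638-109143837: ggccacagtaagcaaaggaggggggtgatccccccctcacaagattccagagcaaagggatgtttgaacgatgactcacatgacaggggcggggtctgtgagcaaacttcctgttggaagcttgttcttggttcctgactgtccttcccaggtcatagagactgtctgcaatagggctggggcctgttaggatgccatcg
upstream of Grhl2, chr15:37145516-37145715: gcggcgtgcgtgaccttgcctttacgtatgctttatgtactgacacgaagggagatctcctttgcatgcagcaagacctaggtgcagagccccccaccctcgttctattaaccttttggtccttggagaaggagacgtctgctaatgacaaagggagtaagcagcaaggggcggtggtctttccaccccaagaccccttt
downstream of Grhl2, chr15:37307904-37308103: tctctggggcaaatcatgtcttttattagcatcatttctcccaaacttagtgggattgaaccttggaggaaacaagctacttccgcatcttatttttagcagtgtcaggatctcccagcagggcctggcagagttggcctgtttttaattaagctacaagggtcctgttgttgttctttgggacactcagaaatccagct
Trp63 intron, chr16:25803083-25803282: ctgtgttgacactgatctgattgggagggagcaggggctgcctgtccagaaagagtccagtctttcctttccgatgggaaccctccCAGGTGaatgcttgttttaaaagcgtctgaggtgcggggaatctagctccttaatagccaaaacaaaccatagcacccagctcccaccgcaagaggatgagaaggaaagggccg

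Of 6 motifs searched on both strands in these windows, a single match was found, the CAGGTG of the Trp63 region. The other letters searched were AACCGGTT (grainyhead-like), GGTGTGA (T-box), TGTTTAC (forkhead), GCCNNNGGC (TFAP2) and CATGTCC (part of a p63 site). In the central 200 bases of all 44 distal regions at the 10 genes, CAGGTG was present in 6, or 13.6%, against 11.4% of the 55087 distal regions of the genome. GCCNNNGGC was present in 4 of the 44 regions, or 9.09%, against 7.17%, and GGTGTGA in 1, or 2.27%, against 2.77%. AACCGGTT, the core of the grainyhead consensus, was in none of the 44 and in 0.0926% of all distal regions. These matches describe letters in the windows and say nothing of binding.

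The factor genes Grhl2 and Trp63 were the members whose counts separated Tbx1-Cre Ctrl from both other groups. Over the 20119 protein-coding genes with a peak in the window in any list, Tbx1-Cre Ctrl lay above Mesp1-Cre Ctrl without overlap at 10.4%. Tbx1-Cre cKO lay below Tbx1-Cre Ctrl without overlap at 27.1%. The share with both was not computed, so the separation is not shown to be particular to Grhl2 and Trp63. Grhl2 (ENSMUSG00000022286.9, chr15:37162791-37293324, plus strand) had 9, 4 and 7 peaks in the Tbx1-Cre Ctrl libraries, 1, 1 and 0 in Mesp1-Cre Ctrl and 3, 0 and 1 in Tbx1-Cre cKO. Every Tbx1-Cre Ctrl library lay above every library of the other groups. The means were 6.67 ± 2.52 (SD, n = 3) in Tbx1-Cre Ctrl, 0.667 ± 0.577 in Mesp1-Cre Ctrl and 1.33 ± 1.53 in Tbx1-Cre cKO. The difference from Mesp1-Cre Ctrl was 6 peaks and that between Tbx1-Cre cKO and Tbx1-Cre Ctrl was -5.33 peaks, each with p = 0.1 in an exact two-sided permutation test, the smallest p that 3 libraries against 3 allow. With the Benjamini-Hochberg adjustment over the 20119 protein-coding genes with a peak in the window in any list, these exact p-values became 0.92 and 0.367. With 3 libraries against 3 no adjusted p can be below 0.1, so the adjustment could not single out any gene. As a description of its size, a difference of 6 peaks or more between Tbx1-Cre Ctrl and Mesp1-Cre Ctrl was seen at 242 of the 20119 genes (1.20%), and one of -5.33 or lower between Tbx1-Cre cKO and Tbx1-Cre Ctrl at 1011 (5.03%). The window of Grhl2 spans 231 kb, and long windows hold more peaks.

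The peaks at Grhl2 fell into 11 merged regions, 9 of which had no Mesp1-Cre Ctrl peak and 6 of which were found only in Tbx1-Cre Ctrl. Of the 11 regions 5 were called in 1 library only, 4 of them among those 6, and 31.5% of all regions in the genome were found only in Tbx1-Cre Ctrl. The genome share of regions without a Mesp1-Cre Ctrl peak was not computed, so 9 of 11 is no result about Grhl2. The region 17176 bp upstream of the TSS (chr15:37145437-37145793, intergenic) was called with widths of 350, 231 and 295 bp in the 3 Tbx1-Cre Ctrl libraries and in no other library. A region in the first part of the gene (chr15:37163720-37164620, intron), 1357 bp downstream of the nearest Grhl2 TSS, was called in all 3 Tbx1-Cre Ctrl libraries with widths of 502, 646 and 509 bp. It was also called in Mesp1-Cre Ctrl replicate 1 with 349 bp and in Tbx1-Cre cKO replicate 1 with 402 bp, which are the longest lists of their groups. Beyond the 3′ end of Grhl2, a region in an intron of the neighbouring gene Ncald (chr15:37307650-37308356) had widths of 238, 453 and 645 bp in Tbx1-Cre Ctrl and was called in Tbx1-Cre cKO replicate 1 with 353 bp. Whether this region acts on Grhl2 or Ncald, a neuronal calcium sensor, cannot be read from its position. At the promoter of Grhl2 itself, a region 512 bp upstream of the TSS was called in Tbx1-Cre Ctrl replicates 1 and 3 and in Mesp1-Cre Ctrl replicate 2.

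Trp63 (ENSMUSG00000022510.8, chr16:25683849-25892188, plus strand) had the sparsest locus. Each Tbx1-Cre Ctrl library had 1 peak in its window and the other 6 libraries had 0. The 3 peaks formed a single region (chr16:25802922-25803443) with widths of 222, 391 and 498 bp. It lies in an intron, 1180 bp downstream of an internal TSS at position 25802002. Trp63 is transcribed from a 5′ promoter and from an internal promoter, and the internal one gives the ΔN forms of p63 that prevail in epithelia. The nearest Mesp1-Cre Ctrl peak was 222223 bp away and the nearest Tbx1-Cre cKO peak 200325 bp away. The difference of 1 peak had p = 0.1 against either group (exact permutation test, two-sided, adjusted p 0.92 and 0.367), and a difference of 1 or more from Mesp1-Cre Ctrl was seen at 48.4% of all genes tested.

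**Figure D1:**
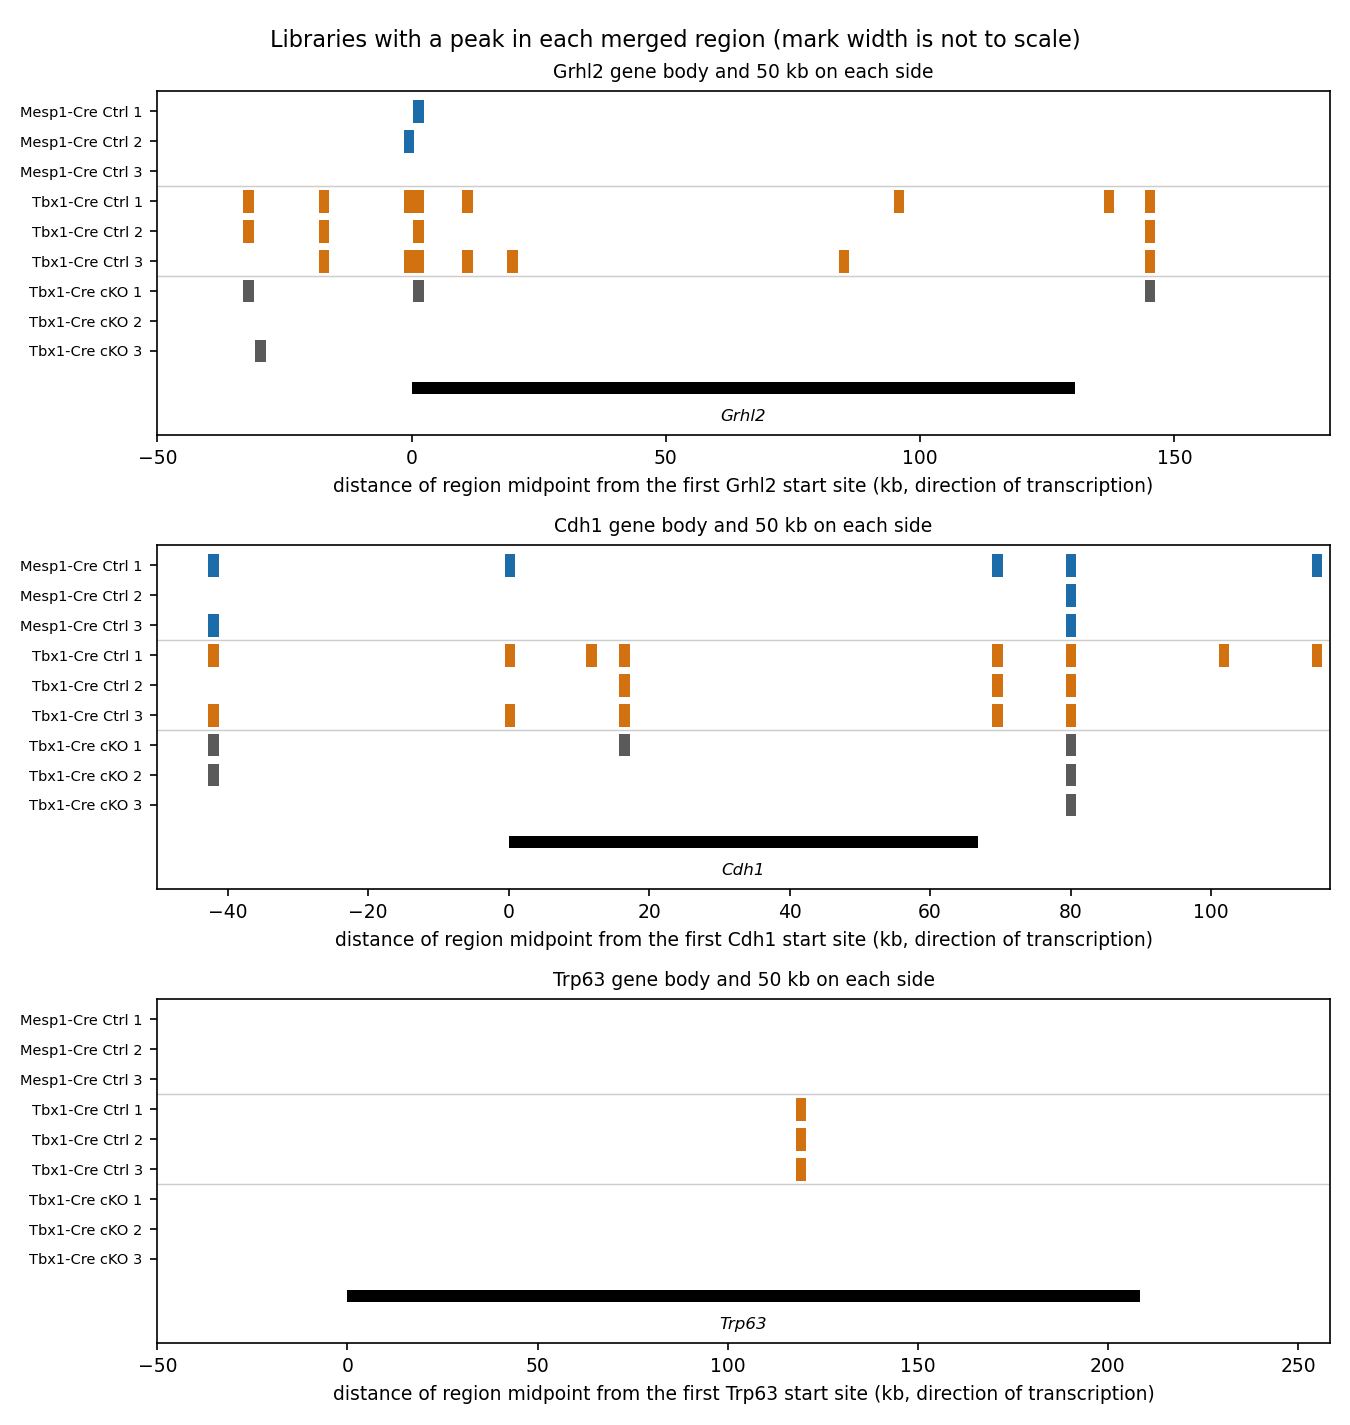
Merged regions at Grhl2, Cdh1 and Trp63 with a mark for each library that has a peak in them, by distance in kb from the first TSS of the gene. Blue marks are Mesp1-Cre Ctrl, orange Tbx1-Cre Ctrl and grey Tbx1-Cre cKO, the black bar is the gene body, and mark width is not to scale. Most marks at Grhl2 and all 3 at Trp63 belong to Tbx1-Cre Ctrl, whereas the region near 80 kb at Cdh1, the promoter of Tmco7, is marked in 9 of 9 libraries.

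Grhl3 (chr4:135097803-135129545, minus strand), the grainyhead-like factor of surface ectoderm, did not share the pattern of Grhl2. It had 6, 2 and 1 peaks in Tbx1-Cre Ctrl, 3, 1 and 2 in Mesp1-Cre Ctrl and 1, 2 and 1 in Tbx1-Cre cKO, so that the groups overlapped. The high value came from Tbx1-Cre Ctrl replicate 1, the longest of the 9 lists, and 6 of its 9 regions were called in 1 library only. Ovol1 (chr19:5549137-5560575, minus strand), a zinc finger factor of epidermal differentiation, had 4 to 7 peaks in every library. Of its 6 regions, 5 were promoters of the neighbouring genes or lay beside them, and its 1 distal region, 31052 bp downstream of the TSS (chr19:5529187-5529860), was open in 9 of 9 libraries with widths of 291 to 601 bp.

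Among the adhesion genes, Cdh1 (ENSMUSG00000000303.6, chr8:109127251-109194146, plus strand) had 8, 3 and 5 peaks in Tbx1-Cre Ctrl, 5, 1 and 2 in Mesp1-Cre Ctrl and 3, 2 and 1 in Tbx1-Cre cKO. The Tbx1-Cre Ctrl mean of 5.33 ± 2.52 (SD, n = 3) exceeded the Mesp1-Cre Ctrl mean of 2.67 ± 2.08, but the groups overlapped (p = 0.3, exact permutation test, two-sided). They overlapped through Mesp1-Cre Ctrl replicate 1: without it the 2 remaining libraries, with 1 and 2 peaks, lay below all Tbx1-Cre Ctrl libraries. The intron region of Cdh1 (chr8:109143502-109143973), 15694 bp downstream of the nearest Cdh1 TSS, was called with 200, 267 and 353 bp in Tbx1-Cre Ctrl and with 232 bp in Tbx1-Cre cKO replicate 1. Downstream of the gene, an intergenic region (chr8:109196577-109197182) was called in 3 of 3 Tbx1-Cre Ctrl libraries, in Mesp1-Cre Ctrl replicate 1 and in no Tbx1-Cre cKO library. A region 41998 bp upstream was called in 2 of 3 libraries of each group.

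Epcam (ENSMUSG00000045394.8, chr17:88035319-88050446, plus strand) had 2 to 4 peaks in every library, with a mean of 3 peaks in both control groups and 2.33 in Tbx1-Cre cKO. Its distal region 22405 bp upstream of the TSS (chr17:88012508-88013321, intergenic) was present in 9 of 9 libraries with widths of 535 to 804 bp. Cldn6 (ENSMUSG00000023906.2, chr17:23816332-23819413, plus strand) lies among 8 other coding genes. It had 9, 6 and 8 peaks in Mesp1-Cre Ctrl, 8, 8 and 7 in Tbx1-Cre Ctrl and 5, 6 and 6 in Tbx1-Cre cKO. The Tbx1-Cre cKO libraries lay below all Tbx1-Cre Ctrl libraries, by 2 peaks (p = 0.1, exact permutation test, adjusted p 0.367). The mean difference turned when peaks were counted per 10000 peaks of the library, to 0.762 higher in Tbx1-Cre cKO. It also turned when the same number of the widest peaks was kept in each list, to 1.33 higher. Per 10000 peaks these groups overlapped (p = 0.2, exact permutation test). Esrp1 (chr4:11259080-11313930, minus strand) had 1 or 2 peaks in each library, and the peak present in all 9 was the promoter of its neighbour Dpy19l4.

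Krt8 (ENSMUSG00000049382.9, chr15:101827142-101834773, minus strand) and Krt18 (ENSMUSG00000023043.6, chr15:101858647-101862457, plus strand) lie side by side, and their windows share 9 of 13 regions. They are therefore described as 1 locus. Krt8 had 8, 7 and 7 peaks in Mesp1-Cre Ctrl, the same numbers in Tbx1-Cre Ctrl, and 7, 6 and 6 in Tbx1-Cre cKO. Krt18 had 9, 8 and 8 peaks in Mesp1-Cre Ctrl, 9, 7 and 7 in Tbx1-Cre Ctrl and 7, 7 and 6 in Tbx1-Cre cKO. The Tbx1-Cre cKO libraries lay below the Mesp1-Cre Ctrl libraries at Krt18 by 1.67 peaks (p = 0.1, exact permutation test, adjusted p 1). The mean difference turned with counts per 10000 peaks (0.157 higher) and with equal numbers of the widest peaks (1 higher). Per 10000 peaks these groups overlapped (p = 0.7, exact permutation test).

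Open chromatin at the keratin pair was shared by all 3 groups. An intronic region of Krt8 (chr15:101833334-101834124) was called in 9 of 9 libraries, with widths of 309 to 781 bp. An intergenic region 2523 bp upstream of the Krt18 TSS (chr15:101855720-101856529) and one 19938 bp downstream of the Krt8 TSS (chr15:101814450-101815220) were likewise called in 9 of 9. A further 4 distal regions were called in 8 of 9. These regions near keratin genes of simple epithelia were thus called in the Mesp1-Cre Ctrl libraries, from a mesodermal lineage, as well as in the Tbx1-Cre libraries. Whether they act on Krt8 or Krt18 cannot be read from their position.

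**Figure D2:**
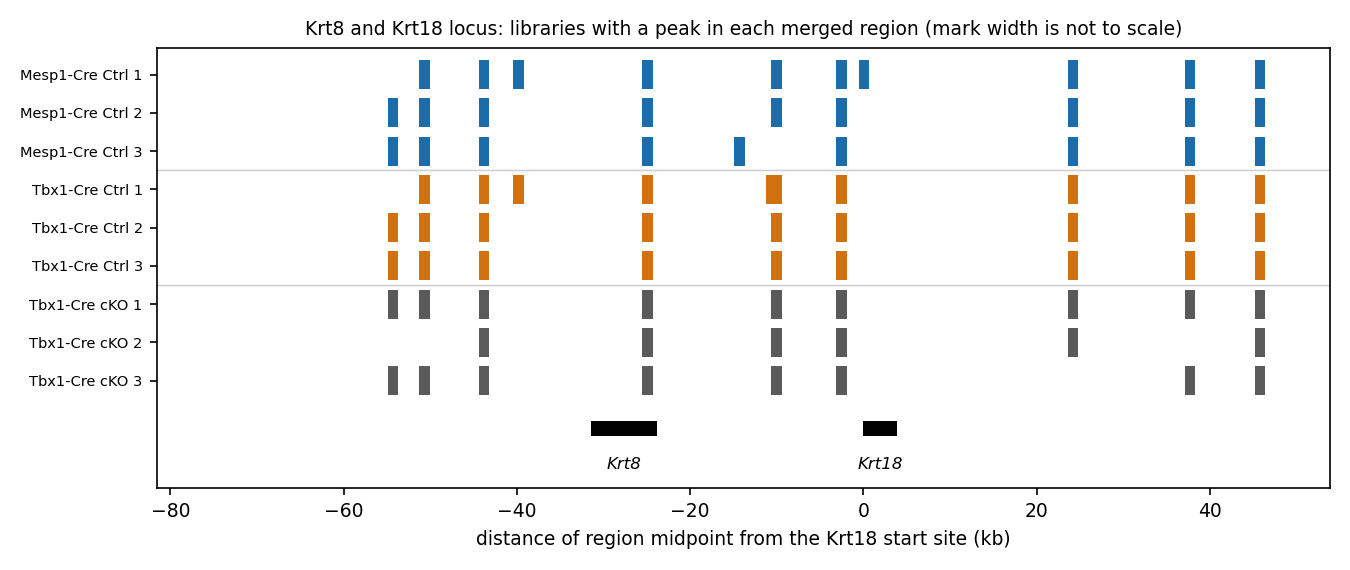
Merged regions at Krt8 and Krt18 with a mark for each library that has a peak in them, by distance in kb from the Krt18 TSS. Black bars are the gene bodies and mark width is not to scale. Most columns of marks run through the libraries of all 3 groups (blue, orange and grey), and 4 of them, including the promoter of Eif4b near 46 kb, are complete in 9 of 9 libraries.

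The promoters of the 10 genes were mostly without a peak, in Tbx1-Cre cells as in Mesp1-Cre cells. A peak with its midpoint within 1 kb of an own TSS was found for 3, 1 and 1 of the 10 genes in Mesp1-Cre Ctrl, for 3, 1 and 3 in Tbx1-Cre Ctrl and for 0, 1 and 0 in Tbx1-Cre cKO. By comparison, 52.3% to 62.1% of all 22350 protein-coding genes had such a peak in the same lists. No own-promoter region was shared by more than 3 libraries. Epcam had one in Mesp1-Cre Ctrl replicates 1 and 3 and in Tbx1-Cre Ctrl replicates 1 and 3, and Cdh1 in Mesp1-Cre Ctrl replicate 1 and in Tbx1-Cre Ctrl replicates 1 and 3. Grhl2 had one in Mesp1-Cre Ctrl replicate 2 and in Tbx1-Cre Ctrl replicates 1 and 3, Krt18 in Mesp1-Cre Ctrl replicate 1 and Krt8 in Tbx1-Cre Ctrl replicate 2. Grhl3, Trp63, Ovol1 and Cldn6 had no peak with its midpoint there in any library. The only own-promoter peak in Tbx1-Cre cKO was that of Esrp1 in replicate 2, 383 bp wide. The count depends on how the promoter is drawn: the Krt8 region present in 9 of 9 libraries has its midpoint 1044 bp from the TSS, and when any overlap with the 1 kb zone was counted Krt8 had a promoter peak in all 9. By the same count Trp63 had one in Tbx1-Cre Ctrl replicates 2 and 3 and in no other library, and Grhl2 in 3 of 3 Tbx1-Cre Ctrl libraries and in Mesp1-Cre Ctrl replicate 2.

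**Figure D3:**
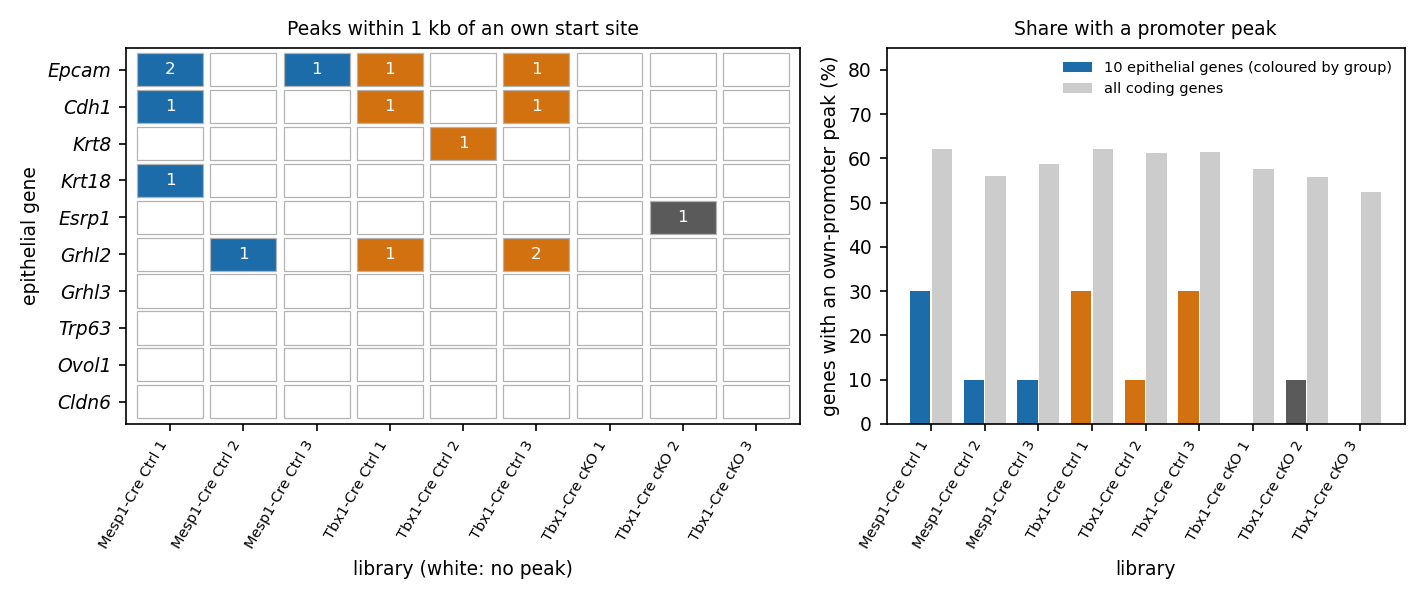
Left, number of peaks with a midpoint within 1 kb of an own TSS for each of the 10 genes (rows) in each of the 9 libraries (columns), white where there is none. Right, the percentage of the 10 genes with such a peak (coloured by group, blue for Mesp1-Cre Ctrl, orange for Tbx1-Cre Ctrl and dark grey for Tbx1-Cre cKO) beside that of all protein-coding genes (light grey). The epithelial genes reach at most 3 of 10, below all genes in every library.

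Promoter sequences of 5 of the 10 genes, Epcam, Krt8, Krt18, Grhl3 and Cldn6, were matched in RefSeq (GRCm38.p6, used for sequence only). In the 250 bases upstream of the TSS all 5 contained an E2-box, CAGGTG or its reverse complement CACCTG, against 17.2% of 32851 promoters in the same table. The 5′ end of the match lay 187 and 19 bases upstream of the TSS in Epcam, 111 in Krt8, 214 in Krt18, 19 in Grhl3 and 93 in Cldn6. Cdh1, Esrp1, Grhl2, Trp63 and Ovol1 had no entry. The E2-box was singled out after its matches were seen, so the share is a description. Of the 6 motifs, the only other with a match in these 5 promoters was GCCNNNGGC, in Krt18. The 250 bases upstream of the TSS are shown for 3 of them, in the direction of transcription with the E2-box in capitals, because Epcam and Grhl3 carry it at the same distance from the TSS and Krt18 lies in the shared keratin locus:
Epcam: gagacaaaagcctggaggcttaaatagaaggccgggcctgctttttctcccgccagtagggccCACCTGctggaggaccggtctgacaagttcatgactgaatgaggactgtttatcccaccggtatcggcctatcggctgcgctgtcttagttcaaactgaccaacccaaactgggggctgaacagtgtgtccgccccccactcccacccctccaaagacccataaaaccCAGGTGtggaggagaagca
Krt18: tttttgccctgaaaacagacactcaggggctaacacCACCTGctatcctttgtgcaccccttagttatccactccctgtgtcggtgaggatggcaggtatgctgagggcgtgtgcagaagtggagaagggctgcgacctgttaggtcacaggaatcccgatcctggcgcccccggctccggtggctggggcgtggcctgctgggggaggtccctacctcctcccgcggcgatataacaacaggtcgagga
Grhl3: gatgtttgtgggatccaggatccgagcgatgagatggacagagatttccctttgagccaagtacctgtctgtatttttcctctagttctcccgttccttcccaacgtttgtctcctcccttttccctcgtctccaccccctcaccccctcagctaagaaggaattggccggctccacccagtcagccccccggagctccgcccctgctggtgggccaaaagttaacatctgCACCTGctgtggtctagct

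**Figure D4:**
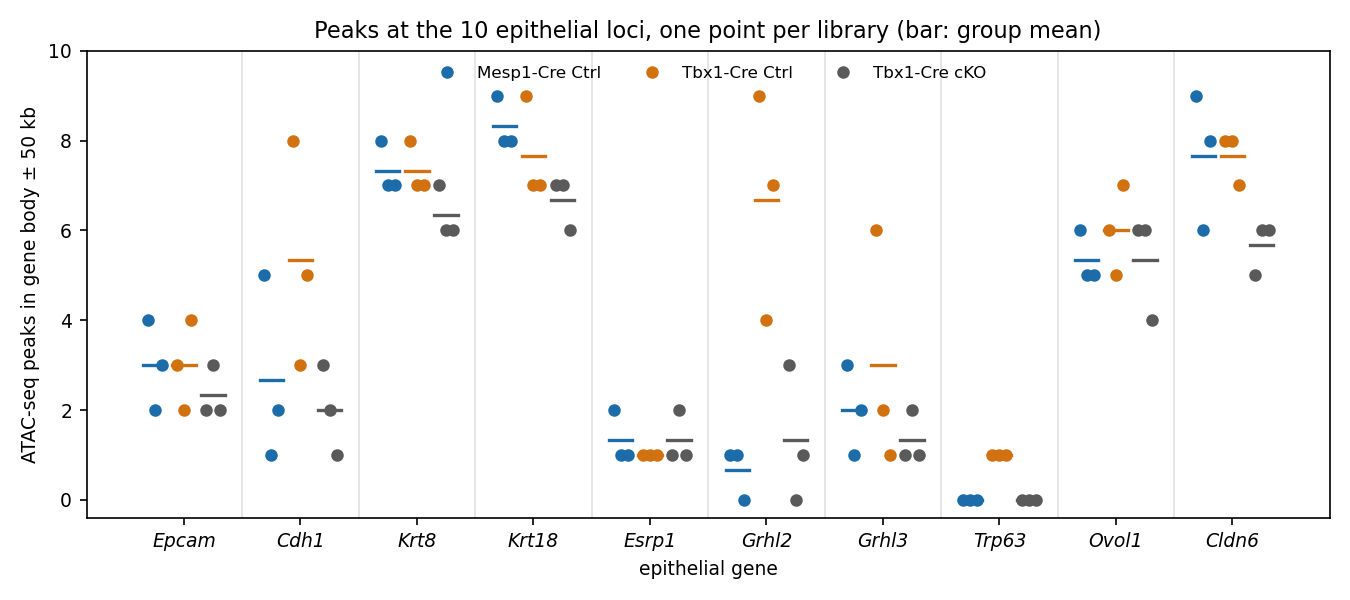
Number of peaks in the gene body and its 50 kb flanks for each of the 10 genes, with a point for each library and a bar for the mean of the 3 libraries of a group. Points of Tbx1-Cre Ctrl stand apart from both other groups at Grhl2 (4 to 9 against 0 to 3) and at Trp63 (1 against 0), and overlap those of Mesp1-Cre Ctrl at the other 8 genes.

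Read across the 10 genes, Tbx1-Cre Ctrl lay above Mesp1-Cre Ctrl without overlap at 2, Grhl2 and Trp63, and below it at 0. Over all 20119 genes tested, 10.4% were above and 0.432% below, so that 2 of 10 is near the background and is no result about the genes as a group. The median difference was 0.333 peaks for the 10 genes and 0.667 for all genes. Without Mesp1-Cre Ctrl replicate 1 the count above was 3, with Cdh1 added, against 28.6% of all genes. When counts were scaled to 10000 peaks of each library, Grhl2 and Trp63 remained above and Krt8, Krt18, Esrp1 and Cldn6 lay below, against 4.74% of all genes above and 21.1% below. When the 19772 widest peaks of every list were used, neither Grhl2 nor Trp63 separated the groups, and the difference at Grhl2 was 0.667 peaks. The Tbx1-Cre Ctrl peaks in the 4 distal regions were 200 to 645 bp wide, in lists with median widths of 464 to 514 bp.

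Tbx1-Cre cKO lay below Tbx1-Cre Ctrl without overlap at 3 of the 10 genes, Grhl2, Trp63 and Cldn6, and above it at 0. Over all genes 27.1% were below and 0.159% above, which again places the 10 genes near the background. The median difference was -1 peaks for the 10 genes and -1.33 for all genes. Per 10000 peaks only Trp63 lay below, and Krt8, Krt18, Esrp1 and Ovol1 lay above, against 5.13% of all genes below and 31.6% above. Without Tbx1-Cre cKO replicate 1, the longest Tbx1-Cre cKO list, the count below was 5, with Cdh1 and Krt8 added, against 43.5% of all genes. With distal peaks alone the count below was 1, Trp63, against 25.3% of the genes with a distal peak. Grhl2 then overlapped, with 3 distal peaks in both Tbx1-Cre cKO replicate 1 and Tbx1-Cre Ctrl replicate 2, and so did Cldn6, with 2, 3 and 3 distal peaks in Tbx1-Cre cKO and 4, 3 and 4 in Tbx1-Cre Ctrl.

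Tbx1-Cre cKO and Mesp1-Cre Ctrl differed less. Tbx1-Cre cKO lay below at 1 gene, Krt18, against 6.22% of all genes, and above at 0, against 0.323%. The median difference was -0.667 peaks for the 10 genes and for all genes. Per 10000 peaks the count was 1 above, Ovol1, and 0 below, against 12.2% and 3.96% of all genes. At Grhl2 the 3 and 3 libraries overlapped (0 to 3 against 0 to 1 peaks), and at Trp63 all 6 were at 0. The 3 comparisons are not independent, since each pair of them shares the libraries of 1 group.

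The 10 windows held 69 merged regions, of which 8 lay at an own promoter, 17 at the promoter of another gene and 44 were distal. The 4 regions called in all Tbx1-Cre Ctrl and no Mesp1-Cre Ctrl libraries were 9.09% of the 44 distal regions, against 6.97% of all distal regions. The opposite pattern was seen in 0 regions, against 0.731%. Without Mesp1-Cre Ctrl replicate 1 the number was 8, against 9.38% of all regions, the added ones being the region downstream of Cdh1, the region in the first part of Grhl2 and 2 regions near Cldn6, 1 of them at the promoter of Mmp25. Also 4 regions were called in all Tbx1-Cre Ctrl and no Tbx1-Cre cKO libraries, against 6.73% of all regions and 7.97% of distal ones, and 0 in the opposite direction, against 0.0136%. These were the region upstream of Grhl2, the Trp63 intron, the region downstream of Cdh1 and a region downstream of Cldn6 (chr17:23843232-23843766). No region was called in all Tbx1-Cre cKO and no Mesp1-Cre Ctrl libraries, against 0.258%, and 2 near Cldn6 showed the reverse, against 2.61%.

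Of the 69 regions 17 were called in 9 of 9 libraries (24.6%, against 18.6% in the genome). Of these 17, 10 were promoters of neighbouring genes and 7 were distal. In the genome 3300 of the 13644 regions called in 9 of 9 libraries were distal, a smaller share than 7 of 17. Among distal regions 7 of 44 were called in 9 of 9 (15.9%, against 5.99%), 3 of them at Krt8 and Krt18, 2 at Cldn6 and 1 each at Epcam and Ovol1. At the other end, 23 regions were called in a single library (33.3%, against 31.6% in the genome). Of the 69, 17 were found in Tbx1-Cre Ctrl only (24.6%, against 31.5%), 7 in Mesp1-Cre Ctrl only (10.1%, against 11.7%) and 3 in Tbx1-Cre cKO only (4.35%, against 1.71%).

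With each peak counted once, the windows together held 40, 27 and 31 peaks in Mesp1-Cre Ctrl, 52, 35 and 42 in Tbx1-Cre Ctrl and 30, 28 and 24 in Tbx1-Cre cKO. As a share of the list this was 10.04 ± 0.615 per 10000 peaks (SD, n = 3) in Mesp1-Cre Ctrl, 9.17 ± 1.23 in Tbx1-Cre Ctrl and 11.3 ± 0.976 in Tbx1-Cre cKO. The order by number, with Tbx1-Cre Ctrl highest, was not the order by share, in which Tbx1-Cre Ctrl was lowest.

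**Figure D5:**
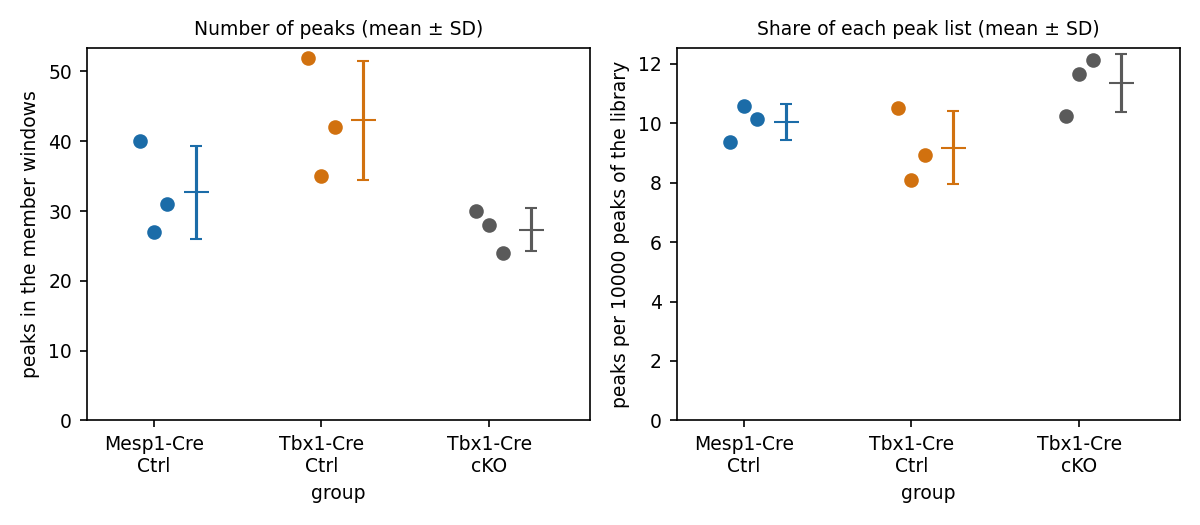
Peaks in the windows of the 10 genes, each counted once, as a number (left) and per 10000 peaks of the library (right). Points are libraries, and the cross and bars are the mean ± SD of the 3 libraries of a group. Tbx1-Cre Ctrl has the highest mean number, 43 peaks, and the lowest mean share, 9.17 per 10000.

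In a wider list of 30 epithelial genes, the counts for Tbx1-Cre Ctrl against Mesp1-Cre Ctrl were also near the background. Tbx1-Cre Ctrl lay above Mesp1-Cre Ctrl without overlap at 2 of them, against 10.4% of all genes, and below at 0, against 0.432%, with a median difference of 0.667 peaks, equal to that of all genes. Krt19, a keratin of simple and ductal epithelia, had 6, 5 and 7 peaks in Tbx1-Cre Ctrl, 2, 1 and 1 in Mesp1-Cre Ctrl and 2, 1 and 0 in Tbx1-Cre cKO. Ovol2, a repressor of mesenchymal genes in epithelia, had 4, 3 and 6 in Tbx1-Cre Ctrl and 2 in each of the other 6 libraries. Both were higher in Tbx1-Cre Ctrl than in Mesp1-Cre Ctrl in 3 of 3 libraries (p = 0.1, exact permutation test, the smallest possible). Tbx1-Cre cKO lay below Tbx1-Cre Ctrl at 13 of the 30 genes, a larger share than the 27.1% of all genes. It lay above at 0, against 0.159% of all genes. The median difference was -1.83 peaks against -1.33 for all genes, and whether the list differs from all genes was not tested. Summed over the list, there were 101 to 152 peaks in Mesp1-Cre Ctrl, 139 to 164 in Tbx1-Cre Ctrl and 68 to 108 in Tbx1-Cre cKO. Krt5, the keratin of basal epidermal cells, was the only gene of the list with 0 peaks in all Mesp1-Cre Ctrl and all Tbx1-Cre cKO libraries, and its mean in Tbx1-Cre Ctrl was 0.333 peaks.

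Of 8 genes of cardiopharyngeal mesoderm, the labelled tissue, none was without a peak in all libraries of a group. The same held for the pharyngeal endoderm, mesenchymal, endothelial, blood and neural lists. Since 20119 of 22350 protein-coding genes had a peak in the window, this does not tell tissues apart. Their summed number of peaks was 30 to 41 in Mesp1-Cre Ctrl, 38 to 49 in Tbx1-Cre Ctrl and 18 to 26 in Tbx1-Cre cKO. Peaks near a gene do not measure its expression, so the presence or absence of a cell type cannot be read from these counts. In a mesenchymal list Tbx1-Cre Ctrl lay above Mesp1-Cre Ctrl at 2 of 12 genes, against 10.4% of all genes, and Tbx1-Cre cKO below Tbx1-Cre Ctrl at 4 of 12, against 27.1%. The part of list length and of other cell types in the differences at Grhl2, Trp63 and Cdh1 was not tested.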

How the data were processed

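ATAC-seq peak lists of 9 libraries were used, 3 per group, with groups and replicate numbers taken from the labels. The authors trimmed adapters with cutadapt, aligned to mm9 with Bowtie2 2.3.4.3, kept unique concordant pairs, removed duplicates and mitochondrial reads, and ran MACS2 without its shifting model on every library by itself. The deposited lists give chromosome, start and end only, with no score, height or count. Their values are positions in bp, so peak width stood in for strength. The text and the sample summary of the study differ in the number of replicates, and all 3 were used. Each Mesp1-Cre Ctrl list held 2 mitochondrial peaks, which were left out of the genes and regions counted but not out of list length.

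Genes and TSS came from the NCBIM37 (mm9) GENCODE annotation, and of 79 other listed symbols 78 were matched. Number of peaks per gene was compared with exact two-sided permutation tests (20 relabellings, smallest p 0.1) and Benjamini-Hochberg adjustment over all genes tested. Groups were called separate when every library of one lay above every library of the other. Named were all 10 genes, at most 5 of the wider epithelial list and 3 of each other list with the largest separate difference between Tbx1-Cre Ctrl and Mesp1-Cre Ctrl, and regions in 3 of 3 against 0 of 3 libraries. Krt5 and the promoter sequences were chosen after their values were seen. Members and lists were chosen with earlier results of these data known. The counting and merging were tested on simulated data. Alternatives were other windows and promoter distances, overlap rules, equal or reduced numbers of the widest peaks, scaling to list length, each library left out, and same-numbered libraries as blocks. Python 3.11.15, numpy 2.4.6, matplotlib 3.10.9 and samtools 1.23.1 were used.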

Additional observations from a re-analysis of the deposited data

How the results depend on the processing

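The separation of Tbx1-Cre Ctrl from Mesp1-Cre Ctrl at Grhl2 and Trp63 held with a 100 kb window, any overlap, scaling to list length, distal peaks alone and each library left out, and was lost at Grhl2 with a 10 kb window, at Trp63 with the widest 75% of peaks and at both with equal numbers of the widest peaks. The number of genes above was 1 with a 10 kb window, 0 with equal numbers of the widest peaks and 1 with the widest 75% of peaks, and the number below was 4 per 10000 peaks and 0 to 1 with a library left out. For Tbx1-Cre cKO against Tbx1-Cre Ctrl, the number below was 5 with a 100 kb window, 0 with equal numbers, 1 with the widest 75%, 1 per 10000 peaks, 1 for distal peaks and 3 to 5 with a library left out, and the number above was 1 with equal numbers and 4 per 10000 peaks. For Tbx1-Cre cKO against Mesp1-Cre Ctrl, the number below was 2 with a 100 kb window, 0 with equal numbers, the widest 75%, scaling or distal peaks, and 1 to 2 with a library left out, and the number above was 1 per 10000 peaks. The share over all genes was not computed for other windows, the widest peaks or most left-out libraries. Counts at those settings are therefore no result about the 10 genes. The mean difference at Cldn6 reversed for Tbx1-Cre cKO minus Tbx1-Cre Ctrl, to 1.33 peaks with equal numbers and 0.762 per 10000 peaks. That at Krt18 reversed for Tbx1-Cre cKO minus Mesp1-Cre Ctrl, to 1 and 0.157. Per 10000 peaks the groups compared overlapped at both genes. Equal numbers make the lists the same length by construction. Scaling divides by list length and turned the direction over all genes too. Tbx1-Cre cKO lay above Tbx1-Cre Ctrl at 0.159% of all genes by number and at 31.6% per 10000 peaks. Against Mesp1-Cre Ctrl these shares were 0.323% and 12.2%. A reversal after scaling is therefore not particular to Cldn6 or Krt18. Causes of the differences were not tested.

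Regions called in all Tbx1-Cre Ctrl and no Mesp1-Cre Ctrl libraries numbered 2 with 50% overlap of both intervals, 2 with a 10 kb window, 0 with equal numbers and 0 with the widest 75%, and 4 to 8 with a library left out. The opposite pattern numbered 0 to 1 with a library left out. Against Tbx1-Cre cKO the Tbx1-Cre Ctrl regions numbered 2 with 50% overlap, 2 with a 10 kb window, 0 with equal numbers, 0 with the widest 75% and 4 to 8 with a library left out, the 8 without Tbx1-Cre Ctrl replicate 2 and 7 without Tbx1-Cre cKO replicate 1. The opposite pattern numbered 1 with equal numbers. Regions called in all Mesp1-Cre Ctrl and no Tbx1-Cre cKO libraries numbered 1 with 50% overlap, 1 with a 10 kb window and 0 with equal numbers or the widest 75%, and the reverse 0 to 1 with a library left out. Except without Mesp1-Cre Ctrl replicate 1, the share over all regions was not computed at these settings.

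Genes with an own-promoter peak averaged 1.67 per library in Mesp1-Cre Ctrl, 2.33 in Tbx1-Cre Ctrl and 0.333 in Tbx1-Cre cKO. At 2 kb these were 4.33, 4.67 and 1.67, any overlap gave 2.67, 4 and 1.33, and equal numbers of the widest peaks gave 0.333 in Mesp1-Cre Ctrl and 0.333 in Tbx1-Cre Ctrl. The share of all protein-coding genes was computed only for midpoints within 1 kb in the full lists. Counts at the other promoter settings are therefore no result about the 10 genes. Peaks per 10000 were 3.23, 3.47 and 3.00 with a 10 kb window and 17.99, 16.8 and 19.9 with a 100 kb window, and 10.8 in Mesp1-Cre Ctrl with equal numbers.

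Same-numbered libraries shared only a number: correlations of their deviations from the group means over all genes ranged from -0.0492 to 0.304. With the replicate block, 5 genes were lower in Tbx1-Cre cKO than in Tbx1-Cre Ctrl in 3 of 3 same-numbered pairs. Against Mesp1-Cre Ctrl the number was 2. The smallest sign-flip p for such pairs is 0.25, and the block moved no other count by over 1.5 times. The share over all genes was not computed for the block, so these counts are no result about the 10 genes. Depth is unknown, so a site without a peak cannot be called closed.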

Other observations

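Over all genes tested, the mean number of peaks was higher in Tbx1-Cre Ctrl than in Mesp1-Cre Ctrl at 14731 and lower at 2809 of 20119. Lists of other cell types held genes of both kinds, except blood (4 higher, 0 lower) and neural genes (2 higher, 0 lower). The mean was higher at 6 and lower at 2 of 8 genes of pharyngeal endoderm, higher at 5 and lower at 1 of 7 of surface ectoderm and placode, and higher at 5 and lower at 3 of 8 of cardiopharyngeal mesoderm. In the pharyngeal endoderm list of 8 genes, Tbx1-Cre Ctrl lay above Mesp1-Cre Ctrl without overlap at 2, Pax9 and Pax1, which are paired-box factors of the pharyngeal pouches. Pax9 had 5, 6 and 7 peaks in Tbx1-Cre Ctrl, 3, 2 and 2 in Mesp1-Cre Ctrl and 3, 2 and 2 in Tbx1-Cre cKO. In the list of surface ectoderm and placode, Dlx5, a homeobox factor of the arches and placodes, had 6, 6 and 7 peaks in Tbx1-Cre Ctrl, 4, 1 and 3 in Mesp1-Cre Ctrl and 4, 1 and 2 in Tbx1-Cre cKO. Oc90, an otic vesicle gene of that list, had 0 in every library.

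Some genes of non-epithelial cells also separated the groups, while others of the same lists overlapped. Means were higher in Tbx1-Cre Ctrl at 10 and lower at 1 of 12 mesenchymal genes, and higher at 5 and lower at 1 of 6 endothelial genes. Prrx1, a homeobox factor of mesenchyme, had 8, 5 and 8 peaks in Tbx1-Cre Ctrl against 3, 1 and 2 in Mesp1-Cre Ctrl, and Erg, an endothelial factor, had 8, 6 and 11 against 5, 2 and 3. Runx1, a factor of blood formation, had the largest difference among the genes named from these lists, with 15, 8 and 11 peaks against 4, 3 and 7, a difference of 6.67 peaks. Pdgfra, a receptor of the cardiopharyngeal mesoderm list, had 8, 4 and 5 against 2, 3 and 1. The counts of such genes were 1 of 7 for surface ectoderm and placode, 1 of 8 for cardiopharyngeal mesoderm, 2 of 12 for mesenchyme, 2 of 6 for endothelium, 1 of 4 for blood and 1 of 3 for neural genes. Each of these separations had p = 0.1 in an exact permutation test, the smallest that 3 libraries against 3 allow, and 10.4% of all genes separated in that direction. In Tbx1-Cre cKO, Prrx1 had 3, 1 and 0 peaks, Erg 3, 3 and 0, Runx1 7, 5 and 4 and Pdgfra 2, 1 and 1. Each lay below Tbx1-Cre Ctrl without overlap, against 27.1% of all genes. Tie1 of the endothelial list (8, 7 and 5 peaks in Tbx1-Cre cKO) and Sox2 of the neural list (5, 2 and 1) overlapped Tbx1-Cre Ctrl.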
